A study of Homo sapiens with 6 samples.

Results

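Aminoacyl-tRNA synthetases are the enzymes that attach each amino acid to its tRNA, and 38 genes of this family were followed in BT-549 cells grown for 24 h in adipocyte conditioned medium (ACM) or unconditioned medium (UCM). The genes were taken by symbol from a list of 19 cytosolic enzymes, 16 mitochondrial enzymes and 3 scaffold proteins, out of 63140 genes in the files. All 38 were found under exactly 1 identifier each, and all 38 were among the 14451 genes that passed the filter on low counts, so no member was lost. RNA came from 3 cultures per medium of BT-549, a triple negative breast cancer line labelled wild type and kept in RPMI-1640 with serum and insulin. The cultures were wells of a multiwell plate and nothing says that they were started separately, so p-values measure only the spread between these wells. In bulk RNA, fewer cells of a kind and less RNA per cell cannot be told apart. The labels give 50% ACM for these wells, whereas the supplement of the study describes undiluted ACM, collected from mouse OP9 cells kept in alpha-MEM with insulin, oleate and albumin to form adipocytes. How UCM was made up is not given in the sources used here. Base medium, serum, oleate and insulin may therefore have differed between the groups together with the adipocyte secretions, and these cannot be told apart.

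The libraries held between 17135288 and 21053257 expected counts, the read numbers that RSEM assigns to each gene before any scaling. UCM replicates 2 and 3 were much closer to each other than any other replicates of a group. The chi-square per degree of freedom between their counts was 2.33, against 13.1 to 21.5 for the other pairs. That is above sampling noise but cannot show that these 2 libraries came from separate cultures. They were counted as separate samples, as labelled. The cells are labelled epithelial, but the 7 epithelial markers examined, EPCAM, CDH1 and 5 keratins, had at most 34 counts in any library, while the mesenchymal gene VIM averaged 2671 TPM, RSEM's level per transcript length, in UCM. ESR1 and PGR, the hormone receptor genes, were at 0 counts in all libraries. ERBB2, which encodes HER2, was detected, with a mean of 28.8 TPM in UCM and 27.5 TPM in ACM. Of 6 adipocyte markers, ADIPOQ, LEP and CIDEC were at 0 throughout and PLIN1, FABP4 and LPL had at most 2 counts in any library.

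In the cytosol, each synthetase serves ribosomes that translate nuclear messages, and several of them are held together with the scaffold proteins AIMP1, AIMP2 and EEF1E1 in a multisynthetase complex. Mitochondria carry out their own protein synthesis with a separate set of enzymes, which are also encoded in the nucleus and usually have the suffix 2. Glycyl-tRNA and lysyl-tRNA synthetase are exceptions, since GARS1 and KARS1 each give rise to the enzyme of both compartments. Many cytosolic synthetase genes are known targets of ATF4, a transcription factor whose translation rises when uncharged tRNA or other stresses lead to phosphorylation of eIF2alpha. In the listed enzymes 2 folds of the catalytic domain occur, known as class I and class II.

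In ACM, 6 of the 19 cytosolic genes rose, with an adjusted p-value of 0.05 or less, and none fell. These were MARS1, GARS1, CARS1, WARS1, AARS1 and EPRS1, by 1.21-fold to 1.34-fold. None of the 16 mitochondrial genes and none of the 3 scaffold genes was called in either direction. Among all 14451 genes tested with edgeR's quasi-likelihood test, 3.35% were called higher and 2.21% lower at the same adjusted p-value. At an unadjusted p-value of 0.05 or less, 9 cytosolic genes were higher and 3, HARS1, RARS1 and KARS1, were lower. Among all genes tested 11.9% were higher and 11.5% lower at that level. DESeq2 called 1 cytosolic gene lower, HARS1. No member reached a log2 FC of 0.58, the size of change used by the study, which 1.77% of all genes tested did with an adjusted p-value of 0.05 or less. Positive values were found for 12 of 19 cytosolic and 4 of 16 mitochondrial genes, beside 48.1% of all genes tested. The median log2 FC was 0.15 over the cytosolic genes, -0.09 over the mitochondrial genes and -0.23 over the scaffold genes, against -0.01 over all genes tested. The cytosolic count depended on single libraries. Without UCM replicate 2, and likewise without UCM replicate 3, MARS1 was the 1 member called, while 125 and 156 genes were called higher among all tested. Without ACM replicate 2 the called members were GARS1 and MARS1, and without ACM replicate 3 they were GARS1, MARS1 and WARS1. In those fits 197 and 320 genes were called higher among all tested. Without UCM replicate 1, which leaves the closely matched UCM libraries, 738 genes were called higher and 572 lower among all tested. In that fit 5 cytosolic genes were called higher and AIMP2 lower, and AARS1 was not called. The part of the closeness of UCM replicates 2 and 3 in the calls was not tested.

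**Figure D1:**
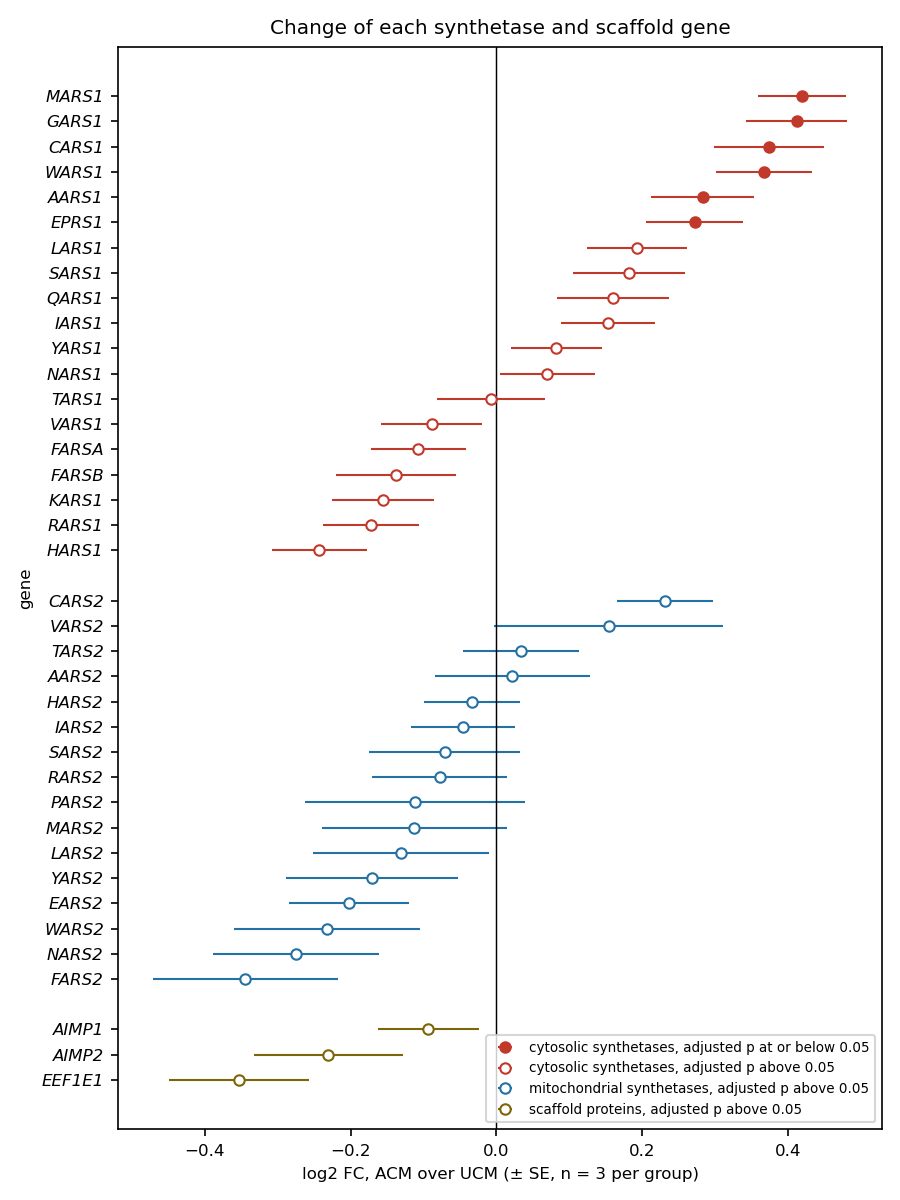
Change of the 38 genes, with log2 FC of ACM over UCM on the horizontal axis, points for the edgeR estimate and bars for its standard error (3 libraries per group). Filled points mark the 6 genes with an adjusted p-value of 0.05 or less, all of them cytosolic, from 0.27 for EPRS1 to 0.42 for MARS1.

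MARS1, the methionyl-tRNA synthetase, occupies bases 57475445 to 57517569 of chromosome 12 (GRCh38, plus strand). Its CPM, the counts scaled to library size after TMM normalization, were 213, 218 and 226 for ACM replicates 1, 2 and 3, and each UCM replicate had 164. All ACM libraries lay above all UCM libraries, and the UCM libraries were almost equal. The log2 FC of 0.42 ± 0.06 (SE) had an edgeR adjusted p = 0.00533. It ranged from 0.39 to 0.45 when any 1 library was omitted, and MARS1 was called under all 15 alternatives. MARS1 shares 355 exonic bases with DDIT3 on the opposite strand, and since the strand setting of the counting is not stated, reads there could fall to either gene. DDIT3 itself had a mean count equal to 6.39% of that of MARS1 and did not pass the test, with a log2 FC of -0.28 (edgeR adjusted p = 0.383).

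GARS1, the glycyl-tRNA synthetase of both compartments, had 410, 460 and 465 CPM in ACM and 332, 337 and 335 CPM in UCM. The groups did not overlap, and ACM replicate 1 was the lowest of the treated wells. Its log2 FC was 0.41 ± 0.07 (SE, edgeR adjusted p = 0.0100), and it was called in 13 of 15 alternatives. WARS1, the tryptophanyl-tRNA synthetase and a well known interferon-induced gene, had 131, 146 and 141 CPM in ACM and 109, 108 and 108 CPM in UCM. Again all ACM libraries were the higher ones. The log2 FC of WARS1 was 0.37 ± 0.07 (SE, edgeR adjusted p = 0.0136), with the call kept in 12 of 15 alternatives.

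CARS1, the cysteinyl-tRNA synthetase, had 75.4, 79.9 and 79.5 CPM in ACM and 65.2, 57.5 and 58.4 CPM in UCM. UCM replicate 1 was the highest control and still lay below every ACM library. Its log2 FC was 0.37 ± 0.08 (SE, edgeR adjusted p = 0.0214). AARS1, the alanyl-tRNA synthetase, had 344, 375 and 390 CPM in ACM and 290, 313 and 308 CPM in UCM, which also did not overlap. EPRS1, the fused glutamyl-prolyl-tRNA synthetase, had 248, 262 and 281 CPM in ACM and 220, 217 and 219 CPM in UCM. For both genes ACM replicate 1 was nearest to the controls and ACM replicate 3 farthest from them. AARS1 had a log2 FC of 0.28 ± 0.07 (SE, edgeR adjusted p = 0.0448) and EPRS1 of 0.27 ± 0.07 (SE, edgeR adjusted p = 0.0431). These 3 calls were the least stable, being kept in 8, 7 and 8 of 15 alternatives for CARS1, AARS1 and EPRS1.

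Of the other 13 cytosolic genes, 6 had a positive and 7 a negative log2 FC. LARS1, SARS1, QARS1 and IARS1, for leucine, serine, glutamine and isoleucine, had a log2 FC of 0.19, 0.18, 0.16 and 0.15, with adjusted p-values of 0.126, 0.187, 0.247 and 0.186 from edgeR. In LARS1 all ACM libraries, at 366, 403 and 406 CPM, exceeded all UCM libraries, at 357, 337 and 334 CPM. IARS1, QARS1 and YARS1 were likewise above in every ACM library, whereas in SARS1 the groups overlapped. YARS1, NARS1, TARS1 and VARS1 had values between -0.09 and 0.08, and the sign of TARS1 changed with some alternatives. Over all cytosolic genes, 10 had every ACM library above every UCM library and 4 had every one below. Such a separation upward was seen in 13.9% of all genes tested and downward in 15.1%.

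At the low end stood HARS1, the histidyl-tRNA synthetase, with 166, 150 and 160 CPM in ACM and 186, 191 and 185 CPM in UCM. All ACM libraries of HARS1 were below UCM. Its log2 FC of -0.24 ± 0.06 (SE) missed the threshold with an edgeR adjusted p = 0.0562. It passed with DESeq2, with the replicate number as a block and with a filter of at least 1 count, the lowest adjusted p-value being 0.0311. RARS1 and KARS1, for arginine and lysine, had a log2 FC of -0.17 and -0.16 (edgeR adjusted p = 0.148 and 0.209), with all ACM libraries lower. KARS1 had 197, 191 and 216 CPM in ACM and 217, 232 and 224 CPM in UCM. So the enzymes that serve both compartments did not move together, GARS1 being called higher while KARS1 was not called. FARSA and FARSB, the subunits of phenylalanyl-tRNA synthetase, had a log2 FC of -0.11 and -0.14, neither of them called.

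**Figure D2:**
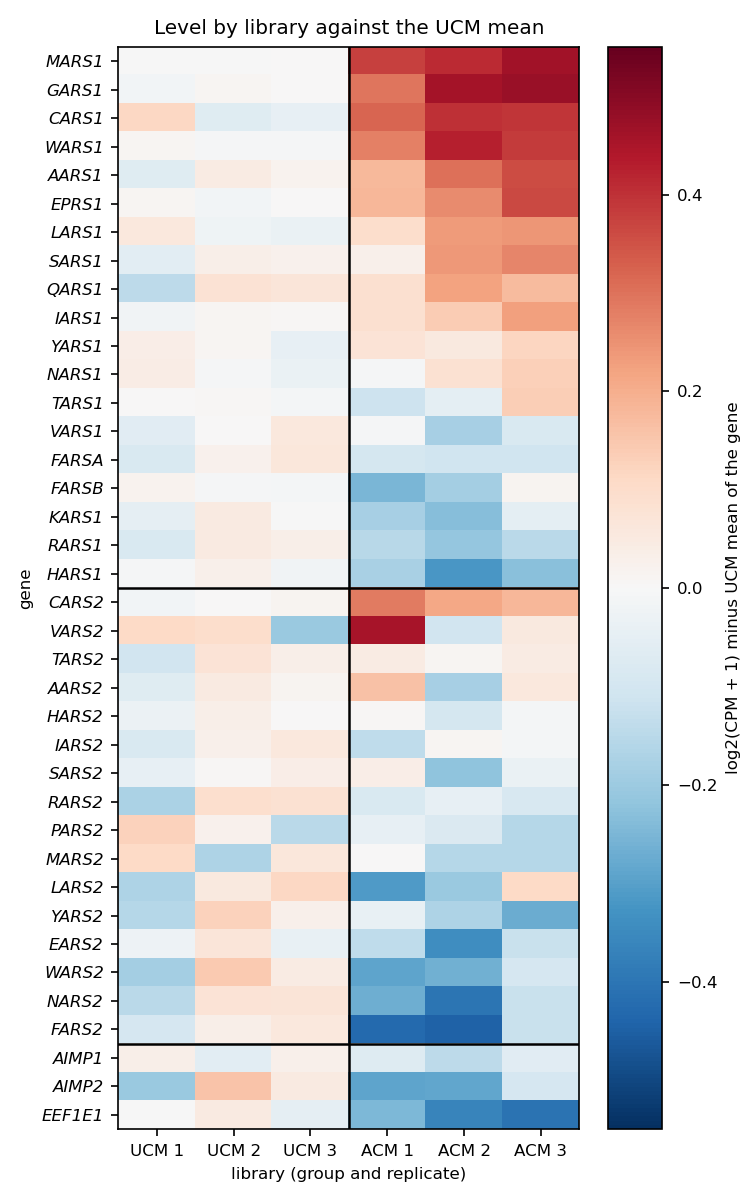
Each row is a gene and each column a library, and the color gives log2(CPM + 1) minus the mean of the 3 UCM libraries for that gene. Lines separate UCM from ACM and the cytosolic, mitochondrial and scaffold genes. The rows of MARS1, GARS1, CARS1 and WARS1 are red in every ACM library, and those of HARS1, RARS1 and EEF1E1 are blue in every ACM library.

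The multisynthetase complex held called and uncalled members. Of its 7 listed enzymes, 2 were called higher (MARS1 and EPRS1) and none lower, with a median log2 FC of 0.16, and RARS1 and KARS1 had negative values. Outside the complex 4 of 12 cytosolic enzymes were called higher, with a median of 0.08. The shares called among all genes tested were 3.35% higher and 2.21% lower, with a median of -0.01. The scaffold proteins had negative values throughout. At an unadjusted p-value of 0.05 or less 2 of them were lower, beside 11.5% of all genes tested, though none was called with DESeq2. EEF1E1, also known as AIMP3, had 20.3, 18.6 and 18.0 CPM in ACM and 24.3, 25.1 and 23.4 CPM in UCM, so that all ACM libraries were lower. Its log2 FC of -0.35 ± 0.10 (SE, edgeR adjusted p = 0.0604) did not pass the test, although it did with the replicate number as a block, with an edgeR adjusted p = 0.0363. AIMP2 had 60.5, 60.6 and 69.6 CPM in ACM and 64.2, 82.7 and 76.9 CPM in UCM, with overlap, and a log2 FC of -0.23 (edgeR adjusted p = 0.206). That changed to -0.32 (edgeR adjusted p = 0.0418) without UCM replicate 1, its lowest control. AIMP2 shares 532 exonic bases, 29.1% of its exonic sequence, with EIF2AK1 on the opposite strand, whose mean count was 261% of its own. AIMP1 had 66.5, 63.1 and 67.0 CPM in ACM and 71.4, 67.0 and 71.3 CPM in UCM, where ACM replicate 3 nearly reached UCM replicate 2, and a log2 FC of -0.09 (edgeR adjusted p = 0.463).

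By catalytic fold, 4 of 10 cytosolic class I enzymes and 2 of 9 cytosolic class II enzymes were called higher. The share among all genes tested was 3.35%. Cytosolic medians were 0.18 for class I and -0.01 for class II. EPRS1, among the class I calls, was counted there alone, although it also holds the prolyl enzyme, whose mitochondrial form PARS2 is class II. The corresponding mitochondrial medians were -0.11 for 9 class I and -0.07 for 7 class II genes.

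The mitochondrial enzymes showed no called change, and 12 of 16 had a negative log2 FC, beside 51.9% of all genes tested. With an unadjusted p-value of 0.05 or less, 1 was higher and 3 were lower, against 11.9% and 11.5% of all genes tested, and DESeq2 called 1, CARS2, higher. CARS2, for cysteine, was the highest by log2 FC, with 100, 95.4 and 93.1 CPM in ACM and 81.2, 82.1 and 82.8 CPM in UCM. It was the only mitochondrial gene with every ACM library above UCM. Its log2 FC of 0.23 ± 0.07 (SE) had an adjusted p-value of 0.0680 from edgeR and between 0.0447 and 0.229 over the alternatives, passing with DESeq2 and with the replicate block. FARS2, for phenylalanine, was at the other end, with 12.8, 12.7 and 16.1 CPM in ACM and 16.4, 18.0 and 18.4 CPM in UCM. All ACM libraries were lower, ACM replicate 3 lying just under UCM replicate 1. The log2 FC of FARS2 was -0.34 ± 0.13 (SE, edgeR adjusted p = 0.136). EARS2, for glutamate, also lay below UCM in every ACM library, with a log2 FC of -0.20 (edgeR adjusted p = 0.172). NARS2, WARS2 and YARS2 had values of -0.28, -0.23 and -0.17, and the remaining 10 genes lay between -0.13 and 0.15. Counts were lower than for the cytosolic genes, from 120 to 2592 per library against 1001 to 8633, and the standard errors of log2 FC reached 0.16 for VARS2. The sign of AARS2, IARS2, SARS2, TARS2 and VARS2 changed with some alternatives.

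The cytosolic and mitochondrial sets were then set side by side. Summed over its 19 genes, the cytosolic set took 4320, 4506 and 4691 CPM in ACM and 4070, 4160 and 4125 CPM in UCM. All ACM sums exceeded all UCM sums, and the mean was 9.40% higher. The 16 mitochondrial genes summed to 670, 641 and 680 CPM in ACM and 650, 703 and 694 CPM in UCM, which overlapped. The ratio of the sums was 6.44, 7.03 and 6.90 in ACM and 6.26, 5.92 and 5.94 in UCM. It was higher in every ACM library, by 0.17 on the log2 scale (SD between libraries 0.07 in ACM and 0.05 in UCM). No p-value is given for the ratio, because it is a score over genes chosen with earlier results of these data known.

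EPRS1, which serves both glutamate and proline, was left unpaired. Its log2 FC was 0.27, against -0.20 for EARS2 and -0.11 for PARS2. Matching of cytosolic to mitochondrial genes by symbol covered 14 amino acids, phenylalanine with 2 cytosolic subunits, and gave 15 pairs. The log2 FC of the cytosolic gene was above that of its mitochondrial counterpart in 11 of them. These include both phenylalanine pairs, which share FARS2 (-0.34) and whose cytosolic genes FARSA and FARSB had -0.11 and -0.14. All ACM ratios were above all UCM ratios in 7 pairs. In 2 pairs, HARS1 over HARS2 and RARS1 over RARS2, all ACM ratios were below. WARS1 over WARS2 showed the widest difference. Its log2 ratio of CPM was 3.27, 3.40 and 3.17 in ACM and 2.90, 2.52 and 2.63 in UCM, a shift of 0.59. MARS1 over MARS2 had 3.92, 4.13 and 4.18 in ACM and 3.43, 3.73 and 3.48 in UCM, a shift of 0.53. In both pairs all ACM ratios were above all UCM ratios, and the cytosolic gene was called while the mitochondrial gene, with a log2 FC of -0.23 and -0.11, was not. HARS1 over HARS2 went the other way, with 0.74, 0.71 and 0.71 in ACM and 0.96, 0.92 and 0.91 in UCM, a shift of -0.21 without overlap. Those neighbors on chromosome 5 are transcribed head to head and share 108 exonic bases on opposite strands, and their coding sequences are alike, so reads may have been split between them. HARS1 also shares 1090 exonic bases, 7.70% of its exonic sequence, with WDR55 on the opposite strand. The mean count of WDR55 was 58.7% of that of HARS1. CARS1 and CARS2 had positive values for both genes, with a log2 FC of 0.37 and 0.23, and their ratios overlapped between the groups. VARS1 over VARS2 had the most negative shift, -0.23, with overlapping ratios, and VARS2 shares 63.0% of its exonic bases with a long noncoding RNA on the same strand.

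**Figure D3:**
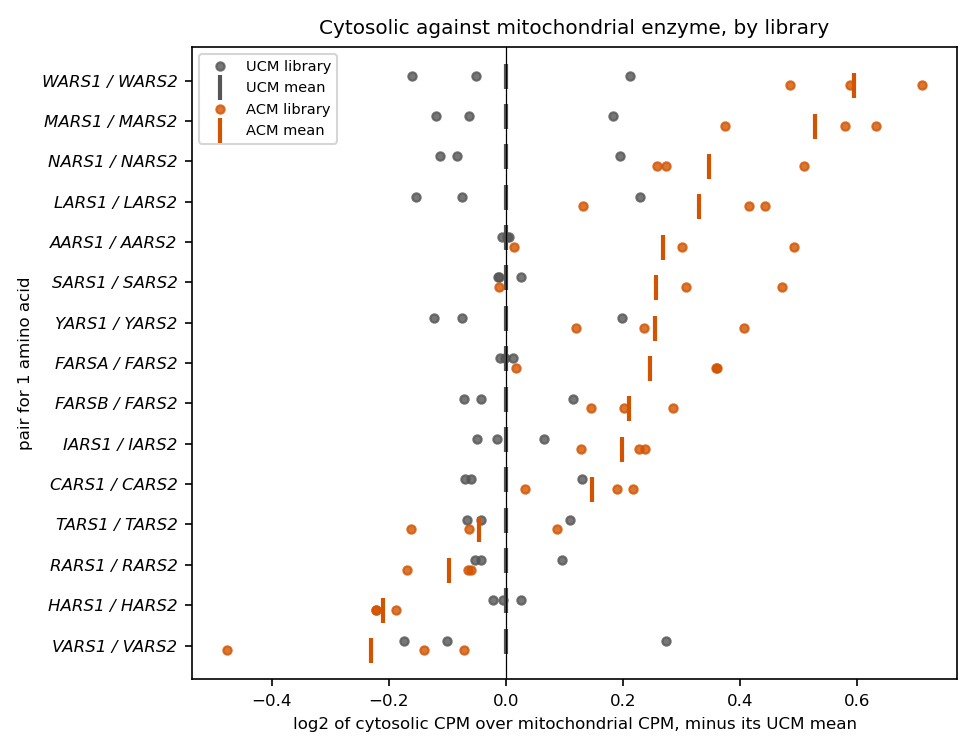
For each of 15 pairs, the horizontal axis gives the log2 ratio of cytosolic to mitochondrial CPM in each library minus the UCM mean of the pair, with points for the 3 libraries per group and ticks for the means. The ACM mean lies to the right in 11 pairs, by up to 0.59 for WARS1 over WARS2, and to the left in 4, by as much as -0.23 for VARS1 over VARS2.

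The order of levels among genes was read in TPM, which is scaled by length, whereas the CPM ratios and sums above are not and serve only to compare libraries. The median over the cytosolic genes was 143 TPM in UCM and 154 TPM in ACM, and over the mitochondrial genes 18.4 and 15.8 TPM. In UCM, 16 of the 19 cytosolic genes had a higher mean than every mitochondrial gene. YARS1, GARS1 and QARS1 led with 227 ± 7.99, 221 ± 0.823 and 215 ± 1.90 TPM in UCM (SD, n = 3 each). The ranges of YARS1 and GARS1 overlapped in UCM, whereas in ACM GARS1 led with 266, 295 and 314 TPM against 236, 225 and 245 TPM for YARS1. The cytosolic genes under the mitochondrial maximum, that of CARS2 at 82.2 ± 1.91 TPM, were EPRS1 (69.9 ± 2.07 TPM), CARS1 (39.7 ± 3.74 TPM) and FARSB (15.9 ± 0.505 TPM, SD, n = 3 each). Cysteine was therefore the amino acid whose mitochondrial gene stood above its cytosolic gene in TPM in every library, with a ratio of cytosolic to mitochondrial TPM between 0.44 and 0.56. For AARS1 over AARS2 and MARS1 over MARS2 the ratio in UCM averaged 15.6 and 15.2. The lowest level was that of PARS2, for proline, at 5.45 ± 0.625 TPM (SD, n = 3).

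Subunits of 1 enzyme differed as well. FARSA and FARSB form a tetramer with equal numbers of each subunit, yet the TPM of FARSA was between 9.74 and 12.8 times that of FARSB over the 6 libraries. The effective length, the mean over a gene's transcripts weighted by their abundance, was 6386 to 6485 bases for FARSB and 1269 to 1455 bases for FARSA. Among the 7 complex enzymes mean levels in UCM ranged from 69.9 TPM for EPRS1 to 215 TPM for QARS1. The scaffold genes AIMP2, AIMP1 and EEF1E1 had 119 ± 13.0, 62.4 ± 4.67 and 59.2 ± 3.72 TPM in UCM (SD, n = 3 each).

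**Figure D4:**
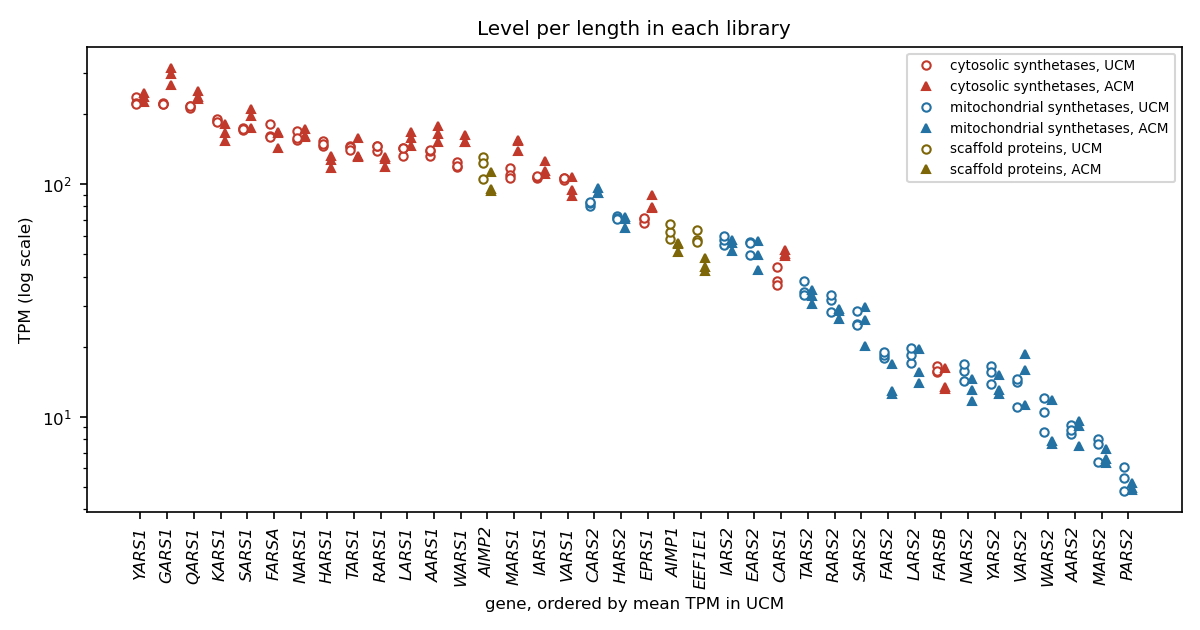
TPM on a log scale for each gene and library, ordered by the mean in UCM, with circles for the 3 UCM and triangles for the 3 ACM libraries. Most cytosolic genes lie near or above 100 TPM and most mitochondrial genes under 60 TPM, with CARS2 above CARS1 and FARSB far below FARSA.

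Promoters were searched for the C/EBP-ATF response element, to which ATF4 binds with a C/EBP partner. RefSeq promoters of GRCh38.p14, each reaching from 250 bases before to 50 bases after a start site, were matched for 33 of the 38 genes, with 45 windows in all. LARS1, VARS1, YARS1, AARS2 and VARS2 had no window. The letters searched were TGATGNAA on both strands, where N is any base. At least 1 match was found for 7 of 16 cytosolic genes (43.8%), 1 of 14 mitochondrial genes (7.14%) and 0 of 3 scaffold genes, beside 4.46% of the 27305 genes with a promoter. Matches were present in 4 of the 6 genes called higher, MARS1, GARS1, CARS1 and AARS1, and absent from these windows in EPRS1 and WARS1. IARS1, NARS1, TARS1 and the mitochondrial YARS2 also held a match without having been called. A match says that the letters are there and does not measure binding. The sequences follow 5′ to 3′ on the strand of the gene, with the matched letters in capitals, because these are the genes in which called and uncalled members share the element.
MARS1, chr12:57488053-57488082, plus strand: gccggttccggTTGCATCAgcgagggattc
CARS1, chr11:3057407-3057436, minus strand: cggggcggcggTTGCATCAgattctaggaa
AARS1, chr16:70289675-70289704, minus strand: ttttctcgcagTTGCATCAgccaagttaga
GARS1, chr7:30594834-30594863, plus strand: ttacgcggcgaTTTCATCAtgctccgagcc
IARS1, chr9:92293692-92293721, minus strand: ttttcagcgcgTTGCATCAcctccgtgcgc
TARS1, chr5:33440956-33440985, plus strand: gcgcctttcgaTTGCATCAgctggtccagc
NARS1, chr18:57621804-57621833, minus strand: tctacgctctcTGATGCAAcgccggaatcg
YARS2, chr12:32756076-32756105, minus strand: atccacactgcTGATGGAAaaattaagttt

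In 6 of these 8 genes the element was TTGCATCA or its reverse complement TGATGCAA, whereas GARS1 and YARS2 held another base at N. The match began 4 bases before the start of the Ensembl canonical transcript in MARS1 and 2 bases before it in CARS1, and so ran into the 5′ UTR of exon 1 in both. It lay 13 bases before the start in IARS1, 33 in GARS1, 187 in AARS1 and 197 in YARS2, upstream of the gene's canonical transcript. In TARS1 and NARS1 it lay within the 5′ UTR. TARS1, the threonyl-tRNA synthetase, was the only member to hold the longer element TGATGCAAT, which 0.293% of genes with a promoter held, yet ACM libraries had 212, 221 and 252 CPM beside 230, 231 and 228 CPM for UCM (log2 FC -0.01, edgeR adjusted p = 0.966). ACM replicate 3 was thus above and the other ACM libraries below all UCM libraries of TARS1.

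Genes on either side of tRNA charging were read from 6 further lists of 117 genes, all of which were tested, with 5 called higher (4.27%) and 3 lower (2.56%). These shares were near the 3.35% and 2.21% of all genes tested. In the list of uncharged tRNA sensing and ATF4 output, 4 of 11 were called higher and 1 lower, with a median log2 FC of 0.28. ASNS, the asparagine synthetase and an ATF4 target, had 69.7, 96.7 and 95.6 CPM in ACM and 41.0, 38.7 and 33.2 CPM in UCM, a log2 FC of 1.21 (edgeR adjusted p = 0.00336). All ACM libraries were higher, and the difference was larger than for any synthetase. CEBPB and TRIB3, a C/EBP factor and a pseudokinase of the stress response, had a log2 FC of 0.75 and 0.67 (edgeR adjusted p = 0.0151 and 0.00611), and ATF4 itself had 0.34 (edgeR adjusted p = 0.0177). ATF5, a related factor, was lower, with a log2 FC of -0.62 (edgeR adjusted p = 0.00750). GCN1, which helps to activate the kinase EIF2AK4 on uncharged tRNA, had 0.33 (edgeR adjusted p = 0.0637, called with DESeq2 at 0.0187), and EIF2AK4 had -0.06 (edgeR adjusted p = 0.676). ASNS and TRIB3 were called in all 15 alternatives, CEBPB in 14, and ATF4 and ATF5 in 12 each. ATF4 lost its call without ACM replicate 2, UCM replicate 2 or UCM replicate 3, with edgeR adjusted p-values from 0.0694 to 0.0964, and CEBPB without UCM replicate 2, at 0.0653. This list was chosen with earlier results of these samples known, so its direction is not independent evidence.

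Of 30 tRNA processing and export genes, 1 was called higher (3.33%) and 2 lower (6.67%), beside 3.35% and 2.21% of all genes tested. Negative values of log2 FC were found for 27 of the 30, beside 51.9% of all genes, with a median of -0.10. XPOT, the exporter that carries tRNA out of the nucleus, had 217, 237 and 250 CPM in ACM and 189, 198 and 195 CPM in UCM. All ACM libraries were higher, with a log2 FC of 0.28 (edgeR adjusted p = 0.0473). XPOT was called in 7 of 15 alternatives and lost its call without any 1 of 5 libraries, all but ACM replicate 1, with edgeR adjusted p-values from 0.0542 to 0.161. POP1 and RPP40, subunits of RNase P, which trims the 5′ end of tRNA precursors, were lower. Their log2 FC was -0.49 and -0.45 (edgeR adjusted p = 0.00499 and 0.0320). POP1 had 69.7, 63.2 and 66.7 CPM in ACM and 96.1, 92.6 and 91.0 CPM in UCM, without overlap, and was called in 13 of 15 alternatives. RPP40 was called in 10 of 15, and not without ACM replicate 1 or 2 or UCM replicate 2 or 3, where edgeR adjusted p-values ran from 0.0707 to 0.152. Among 58 tRNA modification genes none was called by edgeR or by DESeq2, and the median was -0.08. At an unadjusted p-value of 0.05 or less 2 of them were higher and 11 lower, beside 11.9% and 11.5% of all genes tested. The 5 factors that deliver charged tRNA to cytosolic ribosomes, EEF1A1 among them, had a median of -0.01. The 6 mitochondrial partners, which include the amidotransferase that makes glutaminyl-tRNA in mitochondria and the elongation factor TUFM, had a median of -0.06, and the 7 quality control genes had -0.08. None of these delivery, partner and quality control genes was called by edgeR or by DESeq2. At an unadjusted p-value of 0.05 or less 0 were higher and 1, 2 and 1 were lower, beside the same shares of all genes tested.

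**Figure D5:**
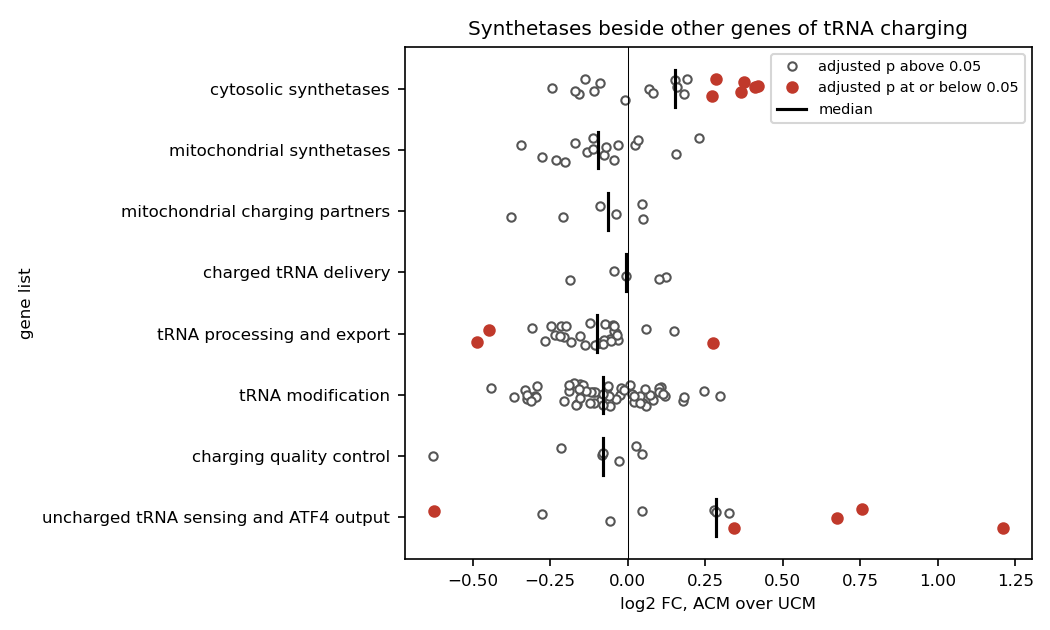
Log2 FC of ACM over UCM for each gene of the cytosolic and mitochondrial lists and of 6 further lists of tRNA charging, with filled points for an adjusted p-value of 0.05 or less and bars for medians. The medians of the cytosolic list, 0.15, and of the ATF4 list, 0.28, lie to the right of 0, and those of the other lists between -0.10 and -0.01.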

How the data were processed

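RNA-seq libraries of 3 ACM and 3 UCM wells were compared. Per the paper and the labels, reads were polyA-enriched and paired, Trim Galore was used for trimming, STAR for alignment to GRCh38 and RSEM for quantification. Versions, annotation and strand setting are not given in the sources used here. The authors deposited expected counts, unscaled and with ambiguous reads shared between genes, TPM, scaled by effective length, and the effective lengths. Their table of fold changes and p-values was not used. Expected counts were rounded and tested in edgeR 4.0.16 (R 4.3.3) with filterByExpr, TMM, a robust quasi-likelihood fit on condition and Benjamini-Hochberg adjustment over 14451 genes. Libraries held 17135288 to 21053257 counts, with a coefficient of biological variation of 0.115. Positions came from GENCODE 44. In a simulation of ACM against UCM with 14243 genes, 98 of 100 changes of 1 and 76 of 100 of 0.58 (log2) were recovered, with 11 false calls. The changes of the members were smaller than either. Alternatives used DESeq2 1.42.0, limma 3.58.1, other scalings, filters and offsets, a replicate block and each library left out. Members and lists were chosen with earlier results of these data known. Library values are given for called members, the extremes of each compartment, WARS1, GARS1, KARS1, the scaffold genes and up to 5 called genes of each further list. Those of LARS1 and TARS1, and the pairs and TPM levels singled out, were chosen after values were seen.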

Additional observations from a re-analysis of the deposited data

How the results depend on the processing

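Of 570 values of log2 FC, for 38 members under 15 alternatives, 536 kept their side of the threshold, 27 were no longer called, 7 became called and 0 of the called values reversed, while 6 uncalled members changed sign. Genes called higher and lower among all tested (484 and 320) came to 762 higher with DESeq2, 1045 and 679 with a filter of at least 1 count, 210 and 121 with limma on log2(TPM + 1), 221 and 128 on log2(TPM + 0.1), and 272 and 134 with effective lengths as offsets. In those last 3 settings 3 cytosolic genes were called higher (GARS1, MARS1 and WARS1) and 1 gene of the further lists lower. The filter of at least 1 count gave 8 lower genes in the further lists and 1 lower cytosolic gene, and DESeq2 1 lower cytosolic and 1 higher mitochondrial gene. With 1 library left out, 125 to 738 genes were higher and 62 to 572 lower, 1 to 6 cytosolic genes and 2 to 5 genes of the further lists were higher, and the cytosolic median log2 FC ranged from 0.11 to 0.19. The promoter count fell from 8 genes to 1 with TGATGCAAT, a longer element. The cause of the other shifts was not tested. Replicate numbers were also fitted as a block, which called 909 genes higher and 703 lower, 1 cytosolic gene lower, 1 mitochondrial gene higher and 7 genes of the further lists lower. Same-numbered libraries correlated by 0.38, 0.04 and 0.26 in their deviations from group means. ACM replicate 3 correlated about equally with UCM replicates 2 and 3, the closely matched libraries, by 0.27 and 0.26. Whether the numbers mark pairs could not be decided from these values, and the main fit left the numbers out. Mitochondrial counts, down to 120 per library, limit what could be detected there.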
